A study of Homo sapiens with 4 samples.

Results

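The genes described here are those of glycolysis and of the cellular response to low oxygen, measured in TE5 cells with and without added ETS1. They were taken by symbol from a list of 52 names: the hypoxia-inducible factor (HIF) subunits, the proteins that sense oxygen and degrade HIF, the glycolytic enzymes, enzymes that steer glycolysis and pyruvate, glycogen enzymes and other known targets of hypoxia. Of the 52 names, 50 were among the 55764 genes of the table, and ERO1A and the long non-coding RNA INSIG1-DT were not matched. A gene under ERO1L, the older symbol of ERO1A, was listed but is not counted among the 50.

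TE5 is a line of human oesophageal squamous cell carcinoma, grown in RPMI-1640 medium with serum. Cells of the ETS1 group stably carried a lentiviral vector in which the CMV promoter drives human ETS1, an ETS-family transcription factor. Cells of the control group carried the empty backbone of that vector, although the genotype label calls them wild type. Each group had 2 RNA-seq libraries of total RNA, and no low-oxygen culture is among the samples, so both groups share the culture conditions given in the labels.

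Glycolysis splits glucose into pyruvate in the cytoplasm, and lactate dehydrogenase can turn that pyruvate into lactate. HIF is a pair of proteins, an alpha subunit that is hydroxylated and destroyed when oxygen is present and a stable beta subunit, and when oxygen is low it binds a short core sequence near its target genes. Many glycolytic enzymes and most of the other hypoxia targets listed here are known HIF targets, and squamous carcinomas often express them strongly.

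Reads recovered for the 16652 genes with authors' test values summed to 40356722 and 44119605 in the controls and 57269982 and 56502877 in the ETS1 libraries. By these sums, which leave out the other listed genes, depth moved with the group, and its part in the results was not tested. ETS1 itself stood at 0.491 and 0.509 FPKM (read fragments per unit of gene length and of library total) in the controls and at 1.84 and 1.87 in the ETS1 libraries, 3.71 times the control mean (limma adjusted p = 0.000704). It reached the filter for testing, a mean of 1 FPKM, only through the ETS1 libraries, so it could pass only as higher. Of 5 squamous markers (KRT5, KRT14, KRT6A, TP63 and DSG3), none exceeded 0.0165 FPKM in any library and 4 were at 0 in both controls, so the labelled squamous identity was not visible in these genes. The 4 simple-epithelial markers summed to 16.1 and 16.3 FPKM in the controls and 16.8 and 16.9 in the ETS1 libraries, but differed in direction: KRT8 rose (log2 0.62, limma adjusted p = 0.000591), KRT18 fell (log2 -0.29, limma adjusted p = 0.00223), EPCAM had a log2 change of -0.23 (limma adjusted p = 0.0525), and CDH1, under the filter for testing, stood at 0.571 and 0.567 FPKM against 1.08 and 0.916. The summed fibroblast markers (2.23 and 2.11 against 3.02 and 3.08) and endothelial markers (0.025 and 0.00915 against 0.0481 and 0.0506) were higher with ETS1, and their part in the results was not tested. Of the fibroblast markers only COL1A1 reached 1 FPKM, and no endothelial marker did. The labels do not say whether the 2 libraries of a group came from separate cultures, so p-values measure only the spread between these libraries, which may be technical. In bulk RNA, fewer cells of a type and less RNA per cell cannot be told apart.

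Promoters of 5 members are shown because they carry the motifs counted further on: DDIT4, BNIP3 and PGK1, which were higher with ETS1, and FAM162A and PFKP, which were lower. Each is the stretch of the 250 bases before the RefSeq start (build GRCh38.p14) that holds no annotated exon, printed on the strand of the gene. Capitals mark the hypoxia response element core, ACGTG or GCGTG on either strand (CACGT or CACGC when read from the other strand), and in PFKP the ETS motif CCGGAAG. The DDIT4 stretch lies on the plus strand at chr10:72273674-72273919, BNIP3 on the minus strand at chr10:131982014-131982173, PGK1 on the plus strand at chrX:78103998-78104173, FAM162A on the plus strand at chr3:122383932-122384175 and PFKP on the plus strand at chr10:3067720-3067969.
DDIT4 promoter: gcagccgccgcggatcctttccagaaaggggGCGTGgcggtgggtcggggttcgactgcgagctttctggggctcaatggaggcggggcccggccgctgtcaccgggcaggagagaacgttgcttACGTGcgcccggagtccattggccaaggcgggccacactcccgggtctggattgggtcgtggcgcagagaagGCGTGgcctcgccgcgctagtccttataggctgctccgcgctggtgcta
BNIP3 promoter: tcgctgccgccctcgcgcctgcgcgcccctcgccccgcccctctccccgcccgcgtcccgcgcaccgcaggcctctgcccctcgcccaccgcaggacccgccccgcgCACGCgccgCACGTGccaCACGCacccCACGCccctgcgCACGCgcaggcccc
PGK1 promoter: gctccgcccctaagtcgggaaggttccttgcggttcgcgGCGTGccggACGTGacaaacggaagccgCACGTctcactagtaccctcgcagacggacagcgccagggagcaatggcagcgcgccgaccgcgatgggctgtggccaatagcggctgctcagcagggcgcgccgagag
FAM162A promoter: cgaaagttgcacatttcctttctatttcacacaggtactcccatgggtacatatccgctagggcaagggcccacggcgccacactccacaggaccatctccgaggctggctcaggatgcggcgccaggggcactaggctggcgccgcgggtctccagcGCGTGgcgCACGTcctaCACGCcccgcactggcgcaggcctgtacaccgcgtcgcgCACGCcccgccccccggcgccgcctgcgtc
PFKP promoter: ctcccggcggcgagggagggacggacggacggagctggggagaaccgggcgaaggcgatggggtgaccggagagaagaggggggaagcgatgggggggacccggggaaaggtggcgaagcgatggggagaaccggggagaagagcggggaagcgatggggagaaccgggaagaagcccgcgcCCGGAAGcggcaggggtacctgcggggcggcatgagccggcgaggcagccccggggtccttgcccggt
The BNIP3 stretch holds 6 core matches and FAM162A 4, although BNIP3 was higher and FAM162A lower with ETS1. DDIT4 and PGK1 hold 3 core matches each, and PFKP holds none beside its single ETS motif.

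Of the 50 members, 44 had a mean of at least 1 FPKM over the 4 libraries and were tested, and 31 of these passed limma's test at a Benjamini-Hochberg adjusted p under 0.05. Among all 14306 tested genes, 59.1% passed, so most genes of this table differ between the groups. Of the members, 17 rose and 14 fell, where 30.7% of all tested genes rose and 28.4% fell. The median log2 change of the tested members was 0.07 and that of all tested genes 0.02, with the same median absolute change of 0.20. All log2 changes are those of FPKM + 1, ETS1 minus control, which understates the change of low genes. Library by library, 26 of the 50 members were higher in both ETS1 libraries than in both controls, 18 were lower and 6 overlapped. Such a separation was common, at 82% of all tested genes.

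**Figure D1:**
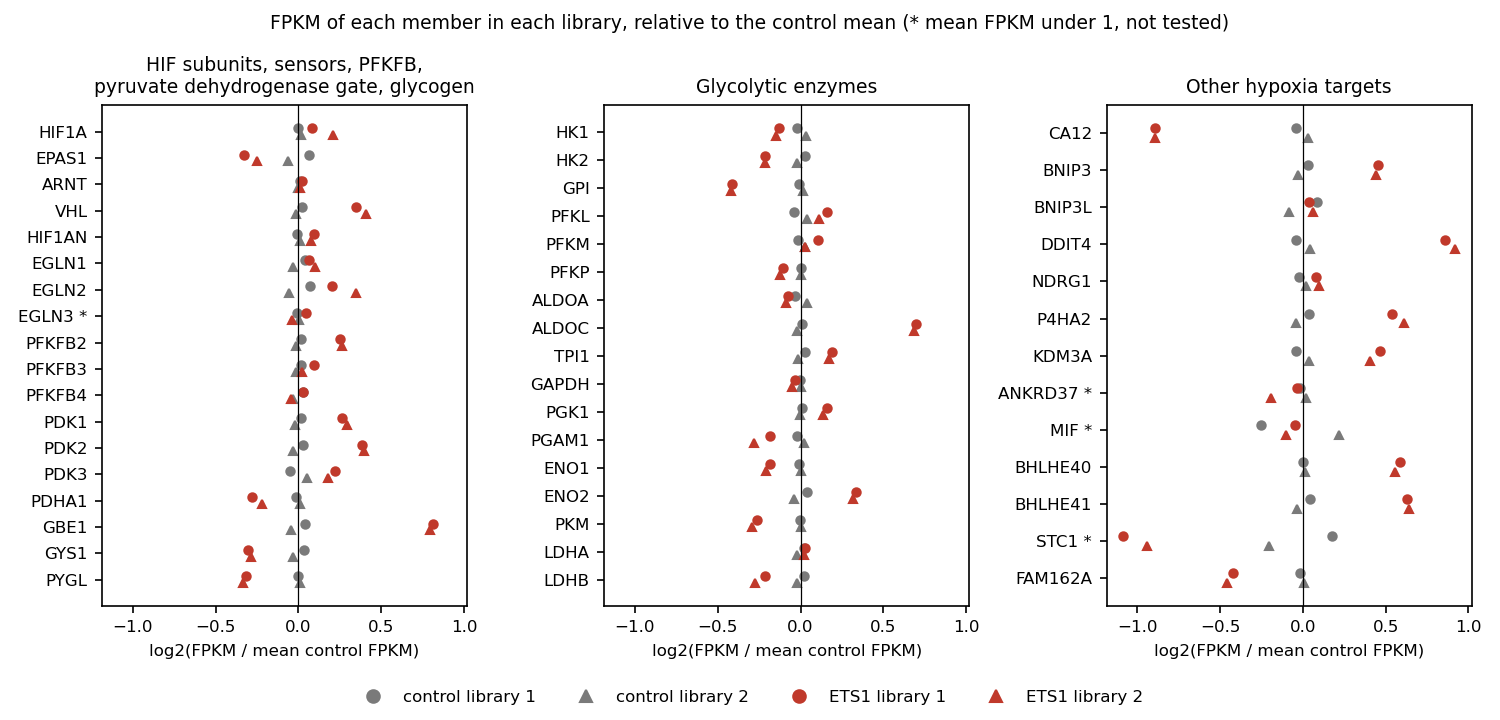
FPKM of the members in each library (PPP1R3C and CA9, at 0 in a control, are left out), as log2 of its ratio to the control mean (horizontal axis), in 3 panels by role; grey marks are controls, red marks ETS1 libraries, and a star marks members under 1 FPKM. GBE1 and DDIT4 lie farthest to the right, CA12 and STC1 farthest to the left, and most glycolytic enzymes lie within 0.5 of the control mean.

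Of the 3 HIF subunits, 0 rose, 1 fell and 2 did not pass, near the share of all tested genes that fell (28.4%). HIF1A, the oxygen-regulated alpha subunit found in most cells, stood at 10.1 and 10.2 FPKM in the controls and at 10.7 and 11.7 in the ETS1 libraries. Its groups did not overlap, but the difference missed the threshold (log2 0.13, SE 0.050, limma adjusted p = 0.0741), and it passed without ETS1 library 1 (log2 0.19, limma adjusted p = 0.0388) and with voom on recovered reads (0.0285). It shrank to log2 0.07 (limma adjusted p = 0.321) without ETS1 library 2, to 0.05 (0.36) with the median of its chromosomal neighbours removed and to 0.003 (0.96) with a trend on gene length and GC content removed. EPAS1, the alpha subunit best known from endothelium and kidney, stood at 4.01 and 3.66 FPKM in the controls and 3.05 and 3.22 with ETS1. It fell (log2 -0.22, SE 0.055, limma adjusted p = 0.0216), and the call was lost without control library 1 (limma adjusted p = 0.0675), ETS1 library 1 (0.1) or ETS1 library 2 (0.058), and with no filter (0.0793). ARNT, the stable beta partner, overlapped between the groups, at 11.7 and 11.6 FPKM against 11.8 and 11.7 (limma adjusted p = 0.765).

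Among the oxygen sensors and the degradation factor VHL, only VHL passed the test. VHL, the subunit of the ubiquitin ligase that recognises hydroxylated HIF alpha, stood at 19.7 and 19.2 FPKM in the controls and at 24.7 and 25.8 with ETS1, 29.9% higher (log2 0.36, SE 0.035, limma adjusted p = 0.00149). The 50 nearest tested genes on its chromosome had a median log2 change of -0.19, so VHL rose among neighbours that were on balance lower. HIF1AN, the asparagine hydroxylase that blocks HIF's contact with its coactivators, stood at 6.82 and 6.89 FPKM against 7.32 and 7.21 (limma adjusted p = 0.115). EGLN1, the prolyl hydroxylase that sets HIF levels in most cells, stood at 14.0 and 13.3 FPKM against 14.2 and 14.6 (limma adjusted p = 0.163). EGLN2, a second prolyl hydroxylase, stood at 1.3 and 1.19 FPKM against 1.43 and 1.58 (limma adjusted p = 0.0982, and 0.0226 with voom on recovered reads), and 30.6% of its exon bases are shared with other genes, the RAB4B-EGLN2 readthrough among them. EGLN3, the prolyl hydroxylase most strongly induced by hypoxia elsewhere, lay just under the filter at 0.992 and 1.0 FPKM against 1.03 and 0.973, and its groups overlapped. All 4 tested genes of this list had a higher mean with ETS1, 1 of them past the threshold, where 30.7% of all tested genes rose.

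Of the 17 glycolytic enzymes, all were tested: 5 rose, 8 fell and 4 did not pass, where 30.7% of all tested genes rose and 28.4% fell. At the levels of most of these enzymes more genes fell, 41.4% of those between 10 and 100 FPKM and 61.6% of those at 100 or more. Their median log2 change was -0.08, with a range of -0.40 to 0.44. That balance was not the same in every setting. After quantile normalization, which forces the 4 libraries to the same distribution, 7 rose and 4 fell and the median was 0.05. With trimmed-mean scaling 4 rose and 8 fell, with a median of -0.1. With the median of each gene's chromosomal neighbours removed, 2 rose and 9 fell. Summed over the 17 enzymes, the level was 1744 and 1739 FPKM in the controls and 1647 and 1612 with ETS1, a difference of -6.4% as deposited and of -7.5% without GAPDH. Several of these genes, among them GAPDH, PGK1, PGAM1, ENO1, TPI1, LDHA and LDHB, have processed pseudogenes, and how reads shared with such copies were counted is not given in the sources used here.

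At the entry to the pathway, both hexokinases fell. HK1, the broadly expressed hexokinase, stood at 19.0 and 19.7 FPKM in the controls and at 17.6 and 17.4 with ETS1 (log2 -0.14, SE 0.032, limma adjusted p = 0.0196). HK2, the isozyme induced in many tumours, stood at 15.5 and 15.0 FPKM against 13.1 and 13.1 (log2 -0.20, SE 0.032, limma adjusted p = 0.00548). The groups of both genes were apart. The HK1 call was lost without control library 2 (limma adjusted p = 0.0576), ETS1 library 1 (0.0842) or ETS1 library 2 (0.107), after quantile normalization (0.0652) and with the median of its neighbours removed (0.0818).

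GPI, which converts glucose phosphate to fructose phosphate, had the largest fall among the 17 enzymes. It stood at 27.9 and 28.4 FPKM in the controls and at 21.1 and 21.0 with ETS1, and fell by 25.2% (log2 -0.40, SE 0.027, limma adjusted p = 0.00073). The libraries of each group lay close together beside the gap between the groups.

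The phosphofructokinases, the committed step of glycolysis, differed in direction, and their sums overlapped between the groups. PFKP, the platelet-type isozyme, stood at 25.5 and 25.5 FPKM in the controls and 23.7 and 23.4 with ETS1, and fell (log2 -0.11, SE 0.027, limma adjusted p = 0.0196). PFKL, the liver-type isozyme, stood at 16.9 and 17.9 FPKM against 19.4 and 18.8, and rose (log2 0.12, SE 0.039, limma adjusted p = 0.0457). PFKM, the muscle-type isozyme, stood at 10.4 and 10.7 FPKM against 11.3 and 10.7 (limma adjusted p = 0.241). The summed level was 52.8 and 54.1 FPKM in the controls and 54.3 and 52.9 with ETS1, which overlap. The share of PFKP in that sum was 48.3% and 47.2% in the controls and 43.6% and 44.3% with ETS1, a difference of -3.83 percentage points. With a library left out, PFKL stood at log2 0.09 to 0.16 and PFKP at log2 -0.12 to -0.1. Both calls were lost in some of these fits, which leave 1 library in a group. PFKP also missed the threshold after quantile normalization, at a log2 change of -0.04, and PFKL with trimmed-mean scaling (limma adjusted p = 0.0771), with no filter (0.117) and with the median of its neighbours removed (0.644).

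Aldolase, which cleaves the fructose bisphosphate, is almost wholly ALDOA in these cells. ALDOA stood at 117 and 123 FPKM in the controls and at 114 and 113 with ETS1 (log2 -0.08, limma adjusted p = 0.0871), a difference that passed without control library 1 (limma adjusted p = 0.035), with voom (0.0365) and with the median of its neighbours removed (0.0237). It did not pass without control library 2 (limma adjusted p = 0.258), and after quantile normalization it was reversed in sign (log2 0.08, limma adjusted p = 0.0965). Other genes share 53.5% of its exon bases. ALDOC, the isozyme typical of brain, stood at 1.4 and 1.37 FPKM against 2.25 and 2.23, 61.5% higher (log2 0.44, SE 0.052, limma adjusted p = 0.0024). The ALDOC share of aldolase FPKM was 1.18% and 1.1% in the controls and 1.93% and 1.94% with ETS1.

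In the values as deposited, TPI1 and PGK1 were the glycolytic steps at which the whole level rose. TPI1, which interconverts the triose phosphates, stood at 179 and 174 FPKM in the controls and 201 and 198 with ETS1 (log2 0.18, SE 0.028, limma adjusted p = 0.00582). PGK1, which makes ATP from bisphosphoglycerate, stood at 47.8 and 47.4 FPKM against 53.1 and 52.3 (log2 0.14, SE 0.026, limma adjusted p = 0.00844). Neither gene's groups overlapped. After quantile normalization TPI1 stood at log2 0.37 (limma adjusted p = 0.000768) and PGK1 at 0.27 (0.00165), and GAPDH was higher too. Their 50 nearest tested genes were on balance higher too, with median log2 changes of 0.14 around TPI1 and 0.08 around PGK1, and with that local median removed neither passed (log2 0.03, limma adjusted p = 0.406 for TPI1, and log2 0.07, limma adjusted p = 0.183 for PGK1). The PGK1 call was also lost without ETS1 library 1 (limma adjusted p = 0.0656) and with a trend on gene length and GC content removed (0.109).

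GAPDH, the enzyme between these steps and often used as a reference gene, was the most abundant member. It stood at 405 and 406 FPKM in the controls and at 396 and 391 with ETS1, a difference of -2.9% that did not pass (log2 -0.04, limma adjusted p = 0.219). After quantile normalization GAPDH was higher with ETS1 (log2 0.18, limma adjusted p = 0.00293). With trimmed-mean scaling it stood at log2 -0.06 (limma adjusted p = 0.113), and with the length and GC trend removed at 0.02 (0.537). It was lower than its neighbours (log2 -0.18 with their median removed, limma adjusted p = 0.00467).

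The later steps were mostly lower. PGAM1, the phosphoglycerate mutase, stood at 50.6 and 52.1 FPKM in the controls and 45.3 and 42.3 with ETS1 (log2 -0.23, SE 0.042, limma adjusted p = 0.00912), and missed the threshold after quantile normalization (limma adjusted p = 0.0929). ENO1, the main enolase, stood at 269 and 272 FPKM against 238 and 234 (log2 -0.20, SE 0.026, limma adjusted p = 0.00354). After quantile normalization ENO1 stood at log2 -0.09 (limma adjusted p = 0.0186). ENO2, the enolase typical of neurons, went the other way, from 15.2 and 14.4 FPKM to 18.7 and 18.4 (log2 0.31, SE 0.038, limma adjusted p = 0.00276). The share of ENO2 in the 2 enolases was 5.35% and 5.01% in the controls and 7.28% in both ETS1 libraries. ENO3, another enolase and outside the list, stood between 9.29 and 9.58 FPKM in all 4 libraries.

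PKM, the pyruvate kinase gene, stood at 91.3 and 91.6 FPKM in the controls and at 76.1 and 74.8 with ETS1, and fell by 17.5% (log2 -0.27, SE 0.025, limma adjusted p = 0.00134). After quantile normalization the change of PKM was log2 -0.14 (limma adjusted p = 0.0077). It lies on chromosome 15, whose tested protein-coding genes had a median log2 change of -0.233, and with the median of its neighbours removed the change was log2 -0.09 (limma adjusted p = 0.0424). The values are per gene, so the alternative exons that make the enzyme's splice forms cannot be separated.

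The lactate dehydrogenases also differed from each other. LDHA, the form whose subunits favour lactate production, was level, at 81.2 and 79.0 FPKM in the controls and 81.7 and 81.1 with ETS1 (log2 0.02, limma adjusted p = 0.493). LDHB, the heart-type subunit and the more abundant form in these cells, stood at 370 and 360 FPKM against 314 and 301 (log2 -0.25, SE 0.034, limma adjusted p = 0.00378). Its neighbours had a median log2 change of 0.28. The share of LDHA in the pair was 18.0% in both controls and 20.6% and 21.3% with ETS1. Quantile normalization shifted both genes upward: LDHA passed (log2 0.17, limma adjusted p = 0.00697) and LDHB was level (log2 0.003, limma adjusted p = 0.95), while the LDHA share still lay 1.78 points higher instead of 2.96. The gene AC010197.2 shares 33.4% of the exon bases of LDHB.

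**Figure D2:**
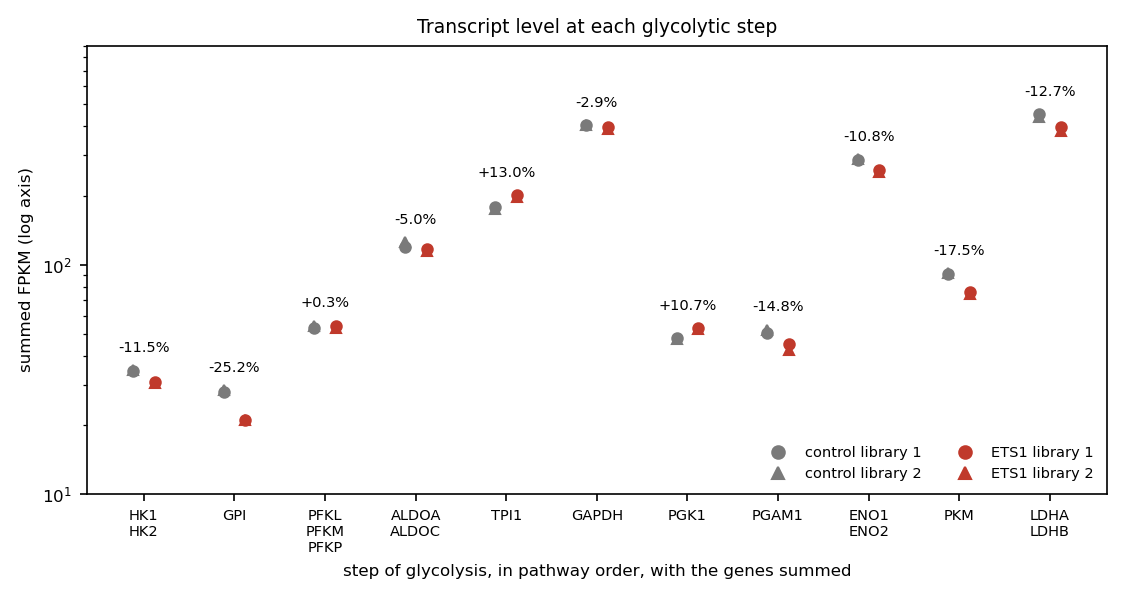
Summed FPKM (log axis) of the listed enzymes at each of the 11 steps from hexokinase to lactate dehydrogenase, per library, with the percent difference of the ETS1 mean from the control mean above each step. The ETS1 libraries lie under the controls at 8 steps and above them at TPI1 and PGK1, and the groups overlap at phosphofructokinase. Of all 14306 tested genes, 5568 were lower without overlap, 6162 were higher and 2576 overlapped. Of those at 100 FPKM or more, 61.6% fell past the threshold and 15.6% rose.

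**Figure D3:**
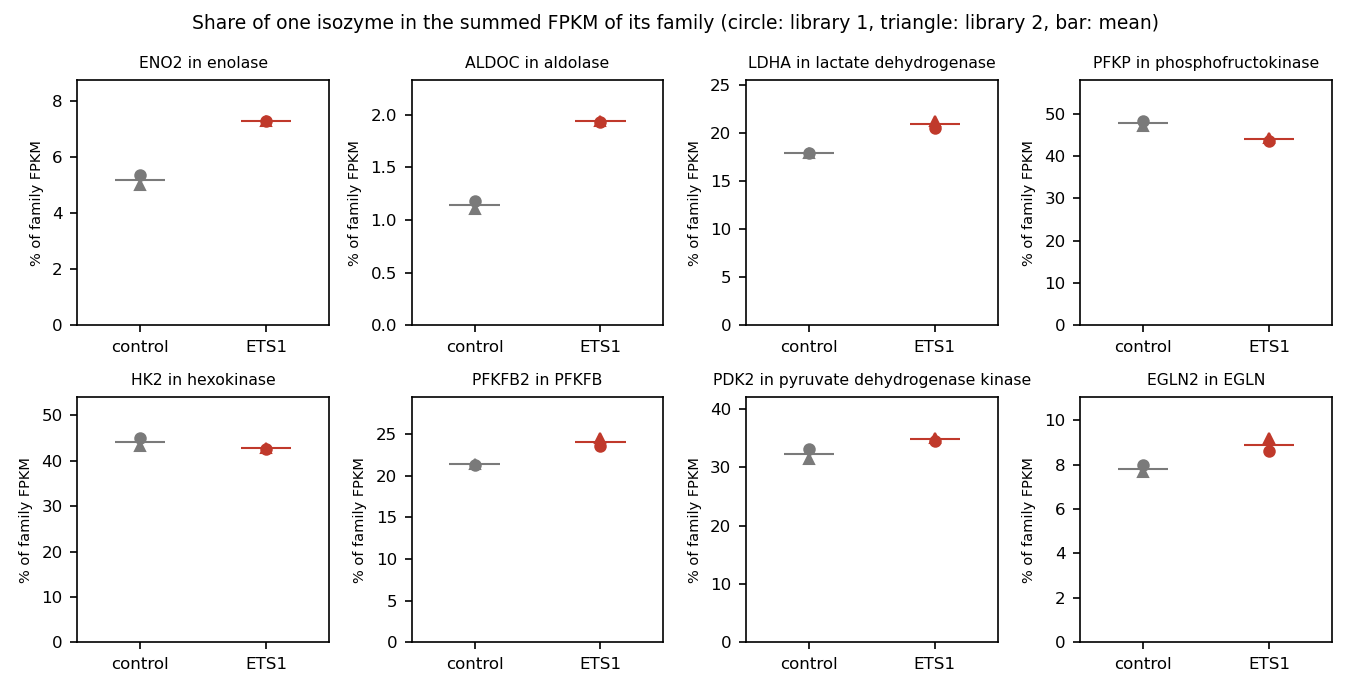
Share of a named isozyme in the summed FPKM of its listed family (percent, axes from 0), with circles for library 1, triangles for library 2 and a bar at the mean. ENO2, ALDOC, LDHA, PFKFB2, PDK2 and EGLN2 hold a larger share with ETS1, PFKP and HK2 a smaller share, and the groups are apart in all 8 panels.

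Isozyme shares were compared only within the listed members and were not tested. The smallest two-sided p that an exact permutation test of a single value can give with 2 libraries in each group is 0.333. The narrowest case was hexokinase, where the HK2 share was 45.0% and 43.2% in the controls and 42.7% and 42.9% with ETS1. Without control library 1 the difference in the HK2 share was -0.363 points in place of -1.27, and without control library 2 it was -2.17 points.

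The 3 bifunctional PFKFB enzymes set the level of the activator of phosphofructokinase. Where 30.7% of all tested genes rose, 1 of the 3 did, PFKFB2. It stood at 2.91 and 2.85 FPKM in the controls and at 3.43 and 3.46 with ETS1 (log2 0.20, SE 0.042, limma adjusted p = 0.0138), and the call was lost without ETS1 library 1 (limma adjusted p = 0.0707) or ETS1 library 2 (0.0824) and with the length and GC trend removed (0.12). PFKFB3, the form with the highest kinase activity, stood at 8.39 and 8.21 FPKM against 8.87 and 8.42, without overlap (limma adjusted p = 0.297). PFKFB4, a further hypoxia-induced form, overlapped at 2.32 and 2.23 FPKM against 2.32 and 2.21 (limma adjusted p = 0.952), and with the median of its neighbours removed it stood at log2 0.21 (0.0103). In the summed PFKFB level, the share of PFKFB2 was 21.3% and 21.4% in the controls and 23.5% and 24.5% with ETS1.

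At the gate between glycolysis and the mitochondrion, all 3 listed kinases that switch off pyruvate dehydrogenase rose and the enzyme's catalytic subunit fell, where 30.7% of all tested genes rose and 28.4% fell. PDK2, the most widely expressed of these kinases, stood at 2.55 and 2.44 FPKM in the controls and at 3.26 and 3.29 with ETS1 (log2 0.29, SE 0.045, limma adjusted p = 0.00525), with 38.6% of its exon bases shared with another gene. PDK1, the kinase best known as a HIF target, stood at 2.15 and 2.1 FPKM against 2.56 and 2.61 (log2 0.20, SE 0.047, limma adjusted p = 0.0204). PDK3 stood at 2.99 and 3.22 FPKM against 3.62 and 3.51 (log2 0.15, SE 0.049, limma adjusted p = 0.0466). No kinase overlapped between the groups, and their summed level was 7.69 and 7.76 FPKM against 9.43 and 9.4, 21.9% higher. PDHA1, the catalytic alpha subunit, stood at 36.9 and 37.4 FPKM against 30.7 and 31.9 and fell by 15.8% (log2 -0.24, SE 0.031, limma adjusted p = 0.00301). After quantile normalization its change was log2 -0.13 (limma adjusted p = 0.024). The PDK1 call was lost without control library 2 (limma adjusted p = 0.0646), ETS1 library 1 (0.0843) or ETS1 library 2 (0.111), and the PDK3 call without control library 1 (0.147), ETS1 library 1 (0.193) or ETS1 library 2 (0.127). With the length and GC trend removed, neither PDK1 (limma adjusted p = 0.564) nor PDK3 (0.236) passed, and PDK3 missed the threshold after quantile normalization (0.115) and trimmed-mean scaling (0.0637) too.

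The glycogen enzymes moved apart. GBE1, which adds the branches to glycogen, lies on chromosome 3 between 81489699 and 81762161 (GRCh38, GENCODE 29). It stood at 4.69 and 4.43 FPKM in the controls and at 8.0 and 7.9 with ETS1, 74.4% higher (log2 0.69, SE 0.040, limma adjusted p = 0.000595). The median log2 change of its neighbours was 0.28, and with that removed GBE1 stood at log2 0.40. PYGL, the phosphorylase that releases glucose from glycogen, stood at 121 and 122 FPKM in the controls and at 97.0 and 96.1 with ETS1, and fell by 20.5% (log2 -0.33, SE 0.025, limma adjusted p = 0.000886). After quantile normalization its change was log2 -0.17 (limma adjusted p = 0.00368). GYS1, the synthase that lengthens the chains, stood at 13.0 and 12.4 FPKM against 10.3 and 10.4 and fell by 18.7% (log2 -0.27, SE 0.036, limma adjusted p = 0.00318). PPP1R3C, a subunit that brings phosphatase to glycogen, was listed at 0.0294 and 0 FPKM in the controls and at 0.0414 and 0.0419 with ETS1, under the filter for testing.

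Of the 14 other hypoxia targets in the table, 10 were tested: 6 rose, 2 fell and 2 did not pass. Their median log2 change was 0.40, against -0.08 for the glycolytic enzymes and 0.02 for all tested genes. That median counts only the genes above 1 FPKM: over all 14, with no filter, it was 0.06, since the 4 low members were level or lower or near 0. The 2 lists also sit at different levels. Between 1 and 10 FPKM lay 5 of the 10 hypoxia targets and 1 of the 17 enzymes, and in that range 33.7% of all tested genes rose and 20.1% fell. Between 10 and 100 FPKM lay 11 of the enzymes and 5 of the hypoxia targets, and there 26.2% of all tested genes rose and 41.4% fell. At 100 FPKM or more lay 5 of the enzymes and none of the hypoxia targets, and there 15.6% of all tested genes rose and 61.6% fell. The difference between the lists was not tested.

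**Figure D4:**
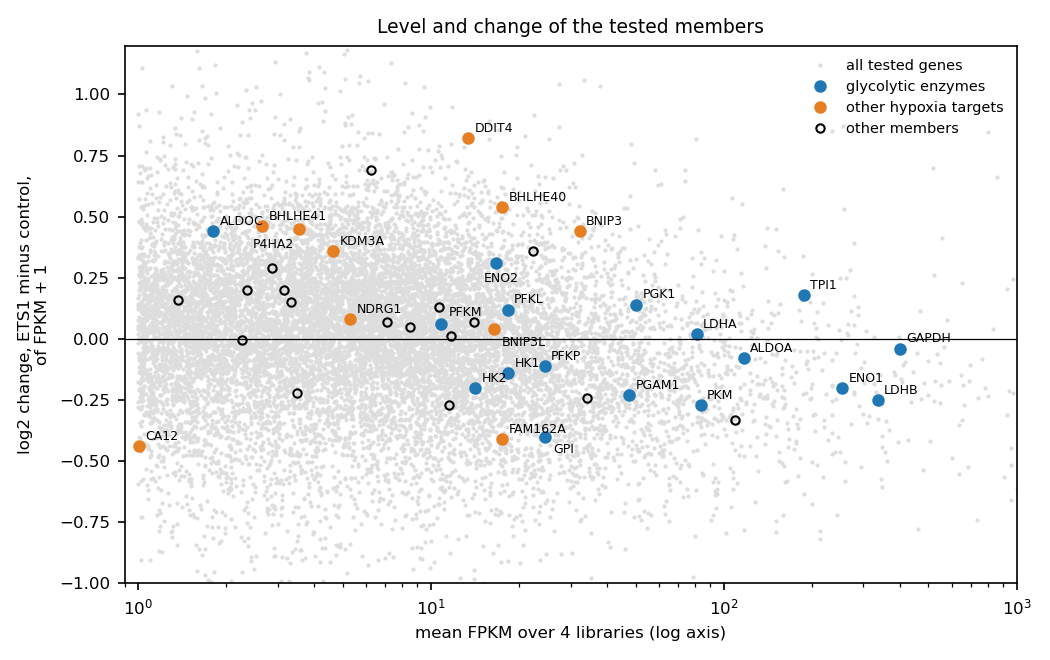
Mean FPKM over the 4 libraries (log axis) against the log2 change of FPKM + 1, ETS1 minus control, for the 44 tested members over all tested genes in grey, of which 157 lie outside the axes. Other hypoxia targets (orange) reach 0.82 at DDIT4, glycolytic enzymes (blue) lie between -0.40 and 0.44, and the cloud of all genes tilts downward at high FPKM.

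DDIT4, a stress-induced inhibitor of the mTORC1 growth pathway, had the largest rise among the members. It lies on chromosome 10 between 72273920 and 72276036 (GRCh38, GENCODE 29), with 762 and 882 recovered reads in the controls and 2018 and 2078 in the ETS1 libraries. Its level was 9.15 and 9.69 FPKM in the controls and 17.1 and 17.8 with ETS1, 85.2% higher (log2 0.82, SE 0.042, limma adjusted p = 0.000505). The antisense gene DDIT4-AS1 shares 41.2% of its exon bases, and whether strand was used in counting is not given in the sources used here.

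BHLHE40 and BHLHE41, paired repressors of the circadian clock that hypoxia induces, both rose. BHLHE40 stood at 14.1 and 14.2 FPKM in the controls and at 21.2 and 20.7 with ETS1 (log2 0.54, SE 0.029, limma adjusted p = 0.000535). BHLHE41 stood at 2.14 and 2.03 FPKM against 3.22 and 3.24 (log2 0.46, SE 0.047, limma adjusted p = 0.00171). The neighbours of BHLHE40 were on balance lower (median log2 change -0.16) and those of BHLHE41 higher (0.23).

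P4HA2, a collagen prolyl hydroxylase of the endoplasmic reticulum, stood at 2.93 and 2.77 FPKM in the controls and at 4.14 and 4.36 with ETS1, 49.1% higher (log2 0.45, SE 0.048, limma adjusted p = 0.00193). BNIP3, a mitophagy receptor, stood at 27.8 and 26.6 FPKM against 37.3 and 36.9, 36.6% higher (log2 0.44, SE 0.033, limma adjusted p = 0.000886). KDM3A, a histone demethylase induced by HIF, stood at 3.84 and 4.06 FPKM against 5.46 and 5.24, 35.4% higher (log2 0.36, SE 0.045, limma adjusted p = 0.00281). In each of these genes both ETS1 libraries lay above both controls.

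BNIP3L, the receptor related to BNIP3, did not follow it: its groups overlapped, at 17.1 and 15.2 FPKM in the controls and 16.5 and 16.8 with ETS1 (limma adjusted p = 0.54). The spread between the controls decides this value, since the difference passed without control library 1 (log2 0.12, limma adjusted p = 0.0489) and turned negative without control library 2 (log2 -0.03). NDRG1, a stress-response gene, stood at 5.06 and 5.21 FPKM against 5.43 and 5.51 (log2 0.08, limma adjusted p = 0.138). Both lie on chromosome 8, whose tested protein-coding genes had a median log2 change of -0.149. Relative to their own neighbours both passed, at log2 0.42 (limma adjusted p = 0.00155) for BNIP3L and 0.29 (0.00189) for NDRG1.

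FAM162A and CA12 fell. FAM162A, a mitochondrial protein induced by hypoxia, stood at 20.0 and 20.3 FPKM in the controls and at 15.1 and 14.7 with ETS1, and fell by 26.2% (log2 -0.41, SE 0.031, limma adjusted p = 0.000845). CA12, a carbonic anhydrase of the cell surface, stood at 1.28 and 1.35 FPKM against 0.712 and 0.71 and fell by 45.9% (log2 -0.44, SE 0.064, limma adjusted p = 0.00449). CA12 reached the filter, at a mean of 1.01 FPKM, only through the controls, so with its level in the ETS1 libraries it could enter the count only as lower. With no filter its limma adjusted p was 0.0241. The neighbours of FAM162A were on balance higher (median log2 change 0.16). Those of CA12, on chromosome 15, were lower (-0.24), and with their median removed CA12 stood at log2 -0.19 (limma adjusted p = 0.0364).

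The 4 hypoxia targets under the filter were listed at low values throughout. STC1, a secreted glycoprotein, stood at 0.935 and 0.719 FPKM in the controls and at 0.39 and 0.43 with ETS1, from 157 and 132 reads against 93 and 101. The authors' deposited table gives STC1 a log2 value of -0.91 (adjusted p = 0.000217), and 51.2% of the genes to which that table gives an adjusted p pass 0.05. In the limma fit with no filter only CA12 and FAM162A fell among the 14 targets, so STC1 did not pass there. CA9, the carbonic anhydrase often used as a marker of hypoxic tumour cells, was listed at 0.0298 and 0 FPKM in the controls and at 0.0419 and 0.0637 with ETS1. ANKRD37, an ankyrin-repeat protein and known HIF target, stood at 0.642 and 0.658 FPKM against 0.635 and 0.568, and MIF, a cytokine, overlapped at 0.558 and 0.775 against 0.644 and 0.621. The MIF value rests on 25 and 38 reads against 41 and 39, and other genes share 61.9% of its exon bases. They also share 38.5% of the exon bases of CA9 and 35.2% of those of ANKRD37. The part of this overlap in the low values was not tested. The gene listed under ERO1L, the older symbol of the oxidase ERO1A, stood at 12.4 and 12.3 FPKM against 14.6 and 15.0 (log2 0.24, SE 0.032, limma adjusted p = 0.0033).

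Just inside the filter lay CA12 and just outside it EGLN3, at means over the 4 libraries of 1.01 and 0.999 FPKM.

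Promoter windows of 250 bases before the RefSeq start were found for 45 of the 50 members. In 34 of these windows over 30 bases are annotated exon, and the motif counts include those bases, unlike the printed stretches. The hypoxia response element core (ACGTG or GCGTG, either strand) occurred in 30 of the 45, or 66.7%, against 59.2% of the promoters of tested genes and 43.1% of all 27305 RefSeq promoters. The mean GC content of the windows was 67.5% in the members, 64.9% in tested genes and 56.9% in all RefSeq promoters. Its part in these shares was not tested. The form ACGTG alone occurred in 9 of 15 members that rose, 3 of 14 that fell and 5 of 11 that did not pass. It occurred in 24.1% of the promoters of tested genes and 18.7% of all promoters. By role, ACGTG occurred in 8 of 17 glycolytic enzymes and 7 of 11 other hypoxia targets. The core is found in members of both directions, as in the BNIP3 and FAM162A stretches.

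The ETS motif CCGGAAG (either strand) occurred in 0 of the 15 promoters of members that rose and in 3 of the 14 of members that fell, PFKP among them, against 16.4% of the promoters of tested genes and 8.82% of all. These windows are short, the palindrome CACGTG counts on both strands, and a match describes letters only and is no measure of binding. Members known as HIF targets make up most of the list, so their share of cores was not independent of how they were chosen.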

How the data were processed

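Total RNA of 2 control and 2 ETS1 libraries of TE5 cells was sequenced. Per the submitters' processing notes, HISAT2, HTSeq and DESeq2 were used with hg38 (GRCh38); their versions and order, the annotation and strand handling are not given in the sources used here. The authors deposited FPKM for 55764 gene names in each library. A second table repeats them for 16652 genes and adds, per the file headers, the authors' mean normalized count per gene (a signal averaged over the 4 libraries), log2 fold changes with standard errors, and p-values with adjusted p-values. It is unstated whether these log2 values were shrunk.

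A count test had been kept as an option, but the tables hold FPKM, so log2(FPKM + 1) was fitted with limma 3.58.1 in R 4.3.3, with a group term and a trend on the prior variance (2 residual and 2.84 prior degrees of freedom). Two-sided p-values were adjusted by Benjamini-Hochberg across the 14306 genes of mean FPKM at least 1 and a threshold of 0.05. The fit was tested on simulated data. Reads of the 16652 genes of the second table were recovered from the FPKM and the mean normalized count. In 2885 genes whose mean count was under 100, 99.3% of values fell within 0.05 of a whole read. Positions, exon overlap and local medians (50 neighbouring tested genes) come from GENCODE 29, matched by name for 83.9% of tested genes. Promoters come from RefSeq (GRCh38.p14), and entries were found for 45 of 50 members.

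All HIF subunits, oxygen sensors and isozyme families are named with their values, and in the other member lists the members past the threshold with an absolute log2 change of at least 0.3. The remaining members are named because every member is accounted for. Of the pathway lists outside the members, at most 3 called genes each are named, by absolute change. ENO3 and ERO1L were named after their values were seen. Results for a leukocyte marker list and for 1 glycogen gene are not reported here. The members and lists were chosen with earlier results of these data known. Alternative settings were a pseudocount of 0.1, a filter of 5 FPKM or none, quantile normalization, trimmed-mean scaling, the replicate number as a block, leaving out each library, the authors' deposited values, voom on recovered reads, and removal of the local chromosomal median or of a length and GC trend.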

Additional observations from a re-analysis of the deposited data

How the results depend on the processing

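Of the 31 called members, 20 kept their direction and passed under every one of the 14 alternatives that gave them a value, 10 lost the threshold under some, and LDHB alone reversed (log2 0.003 after quantile normalization). With a mean of at least 5 FPKM, 5562 genes were called among 8215 tested, 2562 higher and 3000 lower, with 9 members higher and 12 lower. Leaving out each library gave 5790 to 7680 called genes, 13 to 16 members higher and 11 to 14 lower. Whether equal replicate numbers pair the libraries is not given in the labels. The replicate differences of the 2 groups correlated at -0.05, which cannot settle it with 1 difference in each group. With the replicate block 7283 genes were called, 14 members higher and 13 lower, and PFKL, PFKP, PDK1 and PDK3 missed the threshold. The glycolytic median was 0.05 after quantile normalization and -0.11 to -0.05 with a library left out. The median of the other hypoxia targets was 0.44 with pseudocount 0.1 and with voom, 0.06 with no filter and in the authors' deposited values, 0.26 at 5 FPKM, 0.35 after quantile normalization, 0.38 with trimmed-mean scaling, 0.31 with the local median removed, 0.3 with the length and GC trend removed, and 0.38 to 0.4 with a library left out. Fewer of its genes are tested at 5 FPKM and more with no filter or in the authors' values; otherwise the cause was not tested. Quantile normalization gave share differences of 0.555 points for ALDOC, 1.81 for ENO2 and 1.78 for LDHA.

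With a library left out, the share differences ran from -2.17 to -0.363 points for HK2, -4.38 to -3.27 for PFKP, 0.754 to 0.838 for ALDOC, 1.94 to 2.28 for ENO2, 2.66 to 3.27 for LDHA, 2.08 to 3.16 for PFKFB2, 1.64 to 3.26 for PDK2 and 0.77 to 1.37 for EGLN2. Members that did not pass and changed sign were ARNT (-0.006 with trimmed-mean scaling, -0.01 in the authors' deposited values, -0.09 with the local median removed, -0.05 with the length and GC trend removed), HIF1AN (-0.04) and EGLN1 (-0.02) with the length and GC trend removed, PFKM (-0.04) with the local median removed, ALDOA (0.08) and GAPDH (0.18) after quantile normalization, GAPDH (0.02) with the length and GC trend removed, LDHA (-0.03 with the local median removed, -0.06 with the length and GC trend removed), PFKFB4 (0.21 with the local median removed, 0.004 with the length and GC trend removed, -0.03 to 0.02 with a library left out) and BNIP3L (-0.06 with the length and GC trend removed, -0.03 to 0.12 with a library left out). Scaling a whole library leaves the shares as they are, and shares of recovered reads were not computed. The 6 members under 1 FPKM were left out of the main test. They entered only with no filter and, for some, in the authors' deposited values. What depth limits beyond them was not tested.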

Other observations

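Genes of the same pathways outside the list rose and fell as well, and their counts stand against 30.7% of all tested genes that rose and 28.4% that fell. Of 4 tested glucose and lactate transporters and their chaperone, 1 rose and 2 fell. SLC2A1, the glucose transporter best known as a HIF target, stood at 11.0 and 11.2 FPKM in the controls and 8.83 and 8.9 with ETS1 (log2 -0.30, limma adjusted p = 0.00183). SLC2A3, the high-affinity neuronal glucose transporter, went the other way, from 1.04 and 0.969 FPKM to 1.71 and 1.72 (log2 0.44, limma adjusted p = 0.00346). BSG, the chaperone of the lactate transporters, fell (log2 -0.14, limma adjusted p = 0.0189). Of 8 tested isozymes and side enzymes of glycolysis, 0 rose and 3 fell: ADPGK, an ADP-dependent glucokinase (log2 -0.33), G6PC3, a glucose phosphatase (-0.24), and PGAM5, a mitochondrial phosphatase that shares the mutase name but is no glycolytic enzyme (-0.53). Of 7 pentose phosphate enzymes, 2 rose and 4 fell, with PGD (log2 -0.37) and TALDO1 (-0.23) lower and RPE (0.28) higher. Of 10 genes of pyruvate entry, 4 rose and 2 fell. PDP1, the phosphatase that switches pyruvate dehydrogenase on, rose (log2 0.63, limma adjusted p = 0.000739), as did PDK4, a kinase that switches it off (0.36, limma adjusted p = 0.00604), and MPC2, a subunit of the mitochondrial pyruvate carrier, fell (-0.39, limma adjusted p = 0.00146). Of the further glycogen genes, UGP2, which makes the UDP-glucose used by the synthase, rose (log2 0.48), while PYGB, a phosphorylase, fell (log2 -0.20).

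Of 22 hypoxia targets outside the list, 16 were tested and 6 lay under the filter. Of the 16, 10 rose and 2 fell, with a median log2 change of 0.24, where 30.7% of all tested genes rose and 28.4% fell with a median of 0.02. PLOD2, a collagen lysyl hydroxylase, stood at 10.4 and 9.8 FPKM in the controls and 16.2 and 17.0 with ETS1 (log2 0.67, limma adjusted p = 0.000711). VEGFA, the growth factor of blood vessels, stood at 8.53 and 9.07 FPKM against 13.2 and 12.7 (log2 0.51, limma adjusted p = 0.00106), and RIOK3, an atypical kinase, at 13.7 and 13.4 against 19.3 and 20.7 (log2 0.52, limma adjusted p = 0.00102). Of 6 tested partners of HIF, 3 rose and 1 fell. CITED2, which competes with HIF for its coactivators, stood at 11.3 and 10.2 FPKM in the controls and 19.9 and 21.7 with ETS1 (log2 0.89, limma adjusted p = 0.00083). EP300, such a coactivator, rose (log2 0.37, limma adjusted p = 0.00141), and ARNT2, a paralog of the beta subunit, fell (-0.23). The comparison of these lists with each other was not tested.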
